A study of Mus musculus with 4 samples.

Results

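The genes described here encode, in the nucleus, the subunits of the mitochondrial respiratory chain and of ATP synthase, and were measured in mouse prostate tumours. They were taken by symbol (Nduf with a, b, c, s or v and a number; Sdha to Sdhd; Uqcr; Cox4 to Cox8; Atp5), which gave 85 of the 32285 genes in the files. The choice used names alone and no measured value. By symbol 36 belong to complex I, 4 to complex II, 8 to complex III, 20 to complex IV (Ndufa4 and Ndufa4l2 among them) and 17 to complex V. Cox7b2 and Cox8c had 0 UMIs (unique molecular identifiers, each standing for 1 captured RNA), and the other 83 were detected.

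The chain passes electrons from NADH (complex I) and succinate (complex II) through complex III to oxygen at complex IV, and complex V uses the resulting proton gradient to make ATP. Most subunits are encoded in the nucleus and imported, while the mitochondrial genome (the mt- genes) encodes core subunits of complexes I, III, IV and V and none of complex II. Mature neutrophils are known for relying on glycolysis, and several complex IV subunits exist as tissue-specific isoforms.

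The study compared DKO tumours (Nkx3.1CreERT2 with Smad4L/L among their floxed alleles) with TKO tumours, which carried Pygo2L/L as well, with 2 libraries of each. The tamoxifen-inducible Cre is driven from Nkx3.1, a gene of prostate epithelium, so both groups share it and every floxed allele of the DKO tumours. The series text names tumours called nDKOLuc and nTKOLuc, taken 10 or 17 weeks after tamoxifen, and ties neither time to a library. Nothing in the labels says that replicates were separate animals, so p-values below measure only the spread between libraries.

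Of 3508 barcodes 3381 passed the filters, 617 to 1208 per library, with 9167770 to 18360201 UMIs per library, and 0 barcodes were shared between libraries. The files also hold 6 hashtag features (antibody tags that mark the cells of a sample). In every library 100% of the kept cells had the hashtag of its label highest. The absence of shared barcodes therefore does not show that the libraries were captured separately. Cells were clustered without the 85 genes and the mt- genes, and clusters were named by marker genes. Each library held at least 20 cells in 6 classes, while B- and plasma-like, mast-like and endothelial-like cells were too few to compare. Where 4 values are listed they are in the order DKO replicate 1, DKO replicate 2, TKO replicate 1, TKO replicate 2. Pygo2 was counted at 10, 33, 25 and 4 UMIs in epithelial-like cells, or 8.95, 8.70, 16.0 and 7.24 per 1000000 UMIs (CPM). The genotypes overlapped, and because reads come from 3' ends and the sources used here do not give the deleted exons, this checks nothing about the labels.

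With the UMIs of a class pooled, the level summed over the 85 genes was high in epithelial-like and dendritic-like cells and lowest in neutrophil-like cells. The sum, as CPM of all UMIs of a class in a library, was 20317 ± 3582 (SD, n = 4 libraries) in epithelial-like, 19740 ± 840 in dendritic-like and 18278 ± 1245 in macrophage- and monocyte-like cells. It was 17336 ± 817 in fibroblast-like, 15681 ± 1473 in T- and NK-like and 10878 ± 1927 in neutrophil-like cells. Neighbours in this order overlapped in their library values, except that the neutrophil-like libraries, at 13165, 9226, 11783 and 9340 CPM, all lay below the lowest T- and NK-like library, at 13700 CPM. The order of the top classes turned with the scaling: dendritic-like cells were above epithelial-like cells with mt- and ribosomal protein genes out of the total (24281 and 24042 CPM) and with each cell weighted equally (18696 and 16844 CPM). With each cell weighted equally, epithelial-like cells were also below macrophage- and monocyte-like cells. The finer epithelial-like clusters, which differed in depth and in this sum, are given below. Complex by complex, neutrophil-like cells had 3272 CPM for complex I, 158 for complex II, 889 for complex III, 3232 for complex IV and 3327 for complex V. Epithelial-like cells had 5789, 312, 2237, 6086 and 5894 CPM for the same complexes.

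Most single members followed the same pattern. Of the 80 members at 20 CPM or more in at least 1 class, 68 had their lowest mean in neutrophil-like cells (85.0%), as did 35.1% of the 9502 genes at that level. The lowest mean of the others fell in T- and NK-like cells for 6 (13.4% of genes), in fibroblast-like cells for 5 (19.2%), in dendritic-like cells for 1 (12.4%) and in epithelial-like or macrophage- and monocyte-like cells for 0 (10.3% and 9.62%). The highest mean was in epithelial-like cells for 32 members (40.0%, against 22.5% of genes), in dendritic-like cells for 23 (28.8%, against 10.3%) and in fibroblast-like cells for 13 (16.2%, against 19.8%). Macrophage- and monocyte-like cells were highest for 6 (7.52% of genes), T- and NK-like cells for 5 (25.3%) and neutrophil-like cells for 1, Atp5md (14.6%). These means, like the sums, weight each cell by its UMIs. Classes come from clusters of the same cells, so their order is a description with no test.

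**Figure D1:**
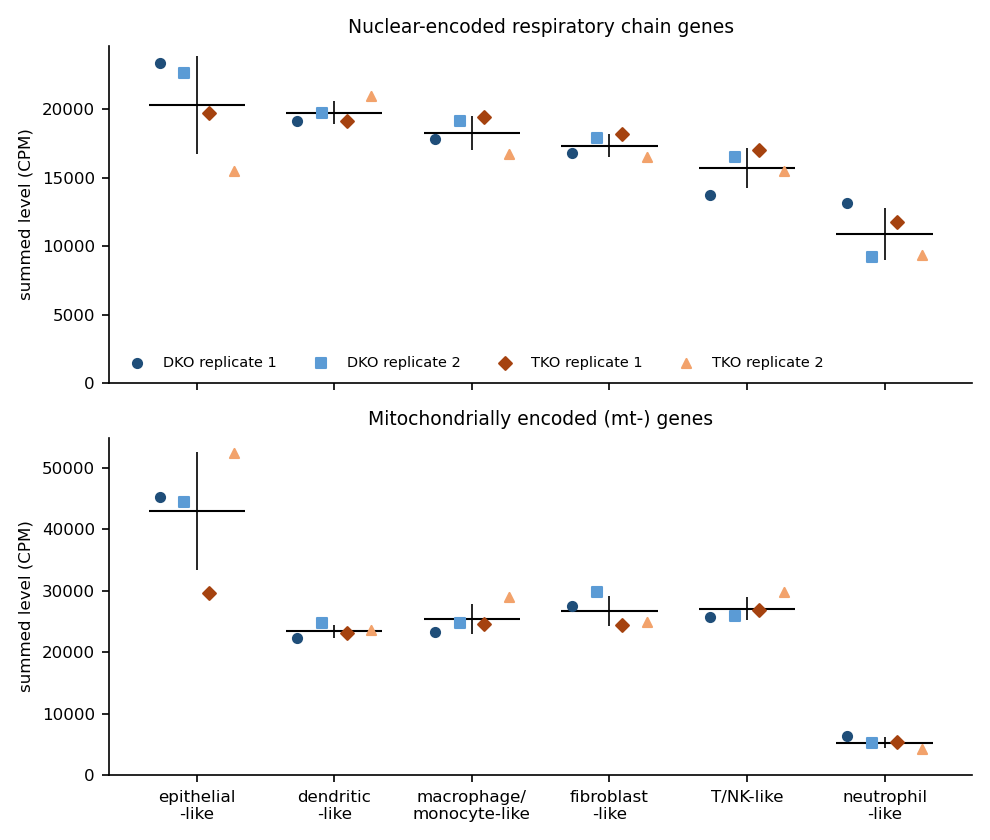
Summed level (CPM, linear axes) of the 85 nuclear-encoded genes and of the 13 mt- genes in each class; points are libraries, with the mean as a line and the SD over 4 libraries as a bar. Neutrophil-like libraries are lowest for both sums, at 9226 to 13165 CPM and 4278 to 6369 CPM.

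The mt- genes differed more between classes than the nuclear-encoded ones. Their sum was 5278 ± 859 CPM in neutrophil-like cells, 23428 ± 1051 CPM in dendritic-like and 42948 ± 9586 CPM in epithelial-like cells, with the 3 other classes between the last 2. The ratio of nuclear-encoded to mt- UMIs was 2.07, 1.80, 2.21 and 2.18 in neutrophil-like cells. Every library of the 5 other classes was below 1, with means of 0.843 ± 0.040 in dendritic-like, 0.727 ± 0.100 in macrophage- and monocyte-like, 0.655 ± 0.066 in fibroblast-like, 0.581 ± 0.064 in T- and NK-like and 0.497 ± 0.153 in epithelial-like cells. Cells above 20% mt- UMIs had been removed, which bounds the mt- level from above.

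Set against the mt- subunits of its own complex, each complex was highest in neutrophil-like cells. Complex IV, whose catalytic core is mitochondrially encoded, had a ratio of 1.39 ± 0.19 there and class means of 0.295 to 0.437 elsewhere. Complex V had 3.03 ± 0.20, against 0.756 to 1.38. Complex I had 2.54 ± 0.14, against 0.717 to 1.39, and complex III, whose only mitochondrial subunit is mt-Cytb, 1.61 ± 0.07, against 0.485 to 1.00. In all 4 complexes the lowest neutrophil-like library was above the highest library of every other class.

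**Figure D2:**
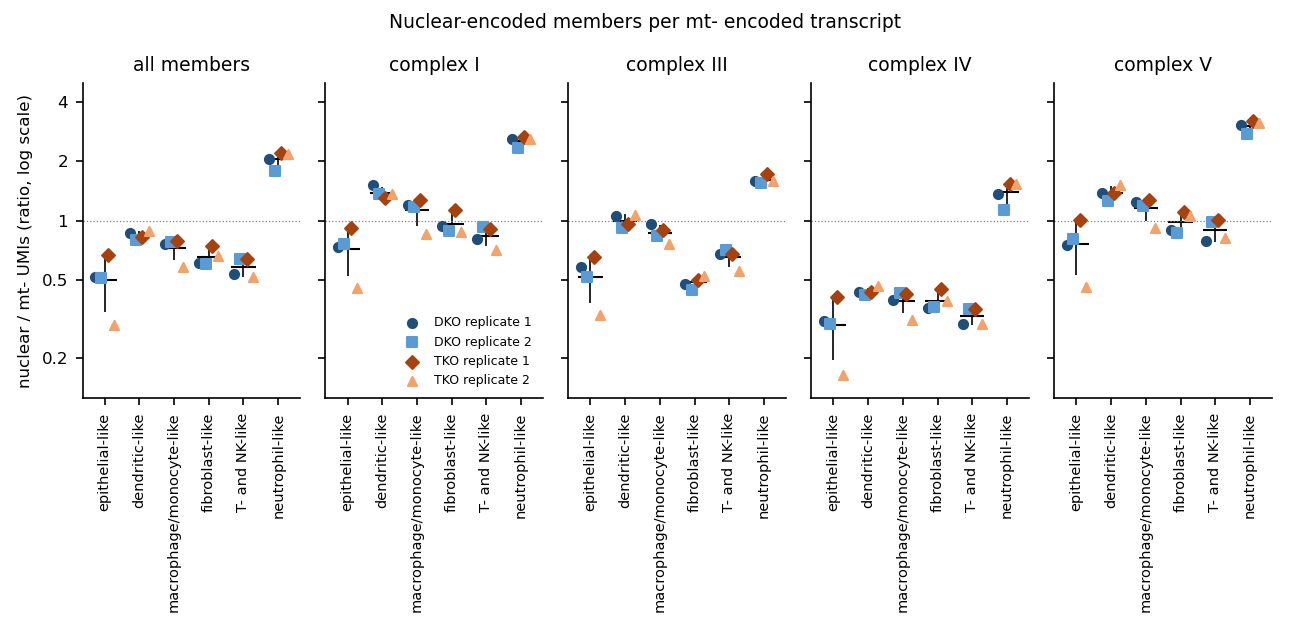
Ratio of nuclear-encoded to mt- UMIs (log axis) for all members and for complexes I, III, IV and V against the mt- genes of the same complex; points are libraries, with mean and SD over 4 libraries. Neutrophil-like libraries stand at 1.80 to 2.21 for all members, and the lowest epithelial-like library is TKO replicate 2, at 0.296.

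Within complex I, members differed in how evenly they were spread over the classes. Ndufa12, an accessory subunit, was the most unequal (the largest share of its summed class means in 1 class), at 160 ± 18.8 CPM in epithelial-like and 57.6 ± 10.0 CPM in neutrophil-like cells. Ndufa1, a small membrane-arm subunit, was the most even, from 142 ± 25.1 CPM in neutrophil-like to 234 ± 21.1 CPM in macrophage- and monocyte-like cells. The core iron-sulphur subunit Ndufs1 was at 27.7 ± 5.27 CPM in neutrophil-like cells, above its dendritic-like mean, and reached 37.1 ± 3.15 CPM in T- and NK-like cells. Ndufv1, which binds NADH, was at 28.5, 16.0, 24.7 and 8.51 CPM in neutrophil-like cells, below every library of the 5 other classes, and highest in fibroblast-like cells at 70.7 ± 4.93 CPM.

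In complex II the flavoprotein Sdha was the most even and was highest in T- and NK-like cells, at 97.5 ± 7.43 CPM, with 53.6 ± 10.6 CPM in neutrophil-like cells. The membrane anchor Sdhc was the most unequal, at 67.6 ± 6.45 CPM in epithelial-like and 22.6 ± 7.41 CPM in neutrophil-like cells. The iron-sulphur subunit Sdhb was highest in macrophage- and monocyte-like cells, at 113 ± 9.56 CPM. Thus the 3 complex II members named here had their highest means in 3 different classes.

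In complex III, Uqcr10, a small subunit, was the most unequal, at 600, 504, 432 and 233 CPM in epithelial-like cells and 132 ± 26.8 CPM in neutrophil-like cells. Its epithelial-like values were lower in both TKO libraries than in both DKO libraries. The Rieske iron-sulphur protein Uqcrfs1 went from 39.3 ± 9.33 CPM in neutrophil-like to 112 ± 17.5 CPM in dendritic-like cells. Uqcrq, a small subunit and the most even, had its lowest mean in T- and NK-like cells (169 ± 28.6 CPM), with neutrophil-like cells at 196 ± 41.9 CPM.

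In complex V, Atp5md, a small membrane subunit, was at 411, 345, 446 and 371 CPM in neutrophil-like cells, its highest class. The catalytic subunit Atp5b had its lowest mean there, 190 ± 46.5 CPM, and was highest in epithelial-like cells, at 463 CPM. Its partner Atp5a1 was at 123 ± 32.6 CPM in neutrophil-like and 299 ± 18.9 CPM in dendritic-like cells. The genes Atp5g1, Atp5g2 and Atp5g3 encode the same mature c-ring protein. All 3 were lowest in neutrophil-like cells, at 92.0 ± 36.6, 111 ± 19.8 and 77.5 ± 33.7 CPM, but their highest classes differed: dendritic-like for Atp5g1 (269 ± 17.7 CPM), fibroblast-like for Atp5g2 (395 ± 33.5 CPM) and epithelial-like for Atp5g3 (278 ± 72.3 CPM).

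In complex IV, the ubiquitous isoforms Cox7a2 and Cox8a had their lowest mean in fibroblast-like, not neutrophil-like, cells. Cox7a2, the most even of the complex, was at 360 ± 80.0 CPM in neutrophil-like cells. It was at 365 CPM in epithelial-like cells, its highest class. Cox8a was at 707 ± 108 CPM in neutrophil-like cells, above T- and NK-like cells (655 ± 57.0 CPM). That was below dendritic-like (857 ± 52.6 CPM) and epithelial-like cells (891 ± 164 CPM). Cox7a2l, a relative of Cox7a2 that links complexes III and IV, was at 88.2, 67.8, 69.3 and 78.4 CPM in neutrophil-like cells, with class means of 189 to 261 CPM elsewhere. Ndufa4, long listed in complex I and now placed in complex IV, was at 119, 40.9, 55.5 and 49.8 CPM in neutrophil-like and 790, 722, 731 and 373 CPM in epithelial-like cells. Cox4i1, the ubiquitous Cox4 isoform, went from 322 ± 42.3 CPM in neutrophil-like to 760 CPM in macrophage- and monocyte-like cells.

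Cox6a2, the heart and muscle isoform of Cox6a (chr7:128205435-128206387, minus strand, mm10), was concentrated in a small dendritic-like cluster led by Siglech, a gene of plasmacytoid dendritic cells. The cluster held 5, 12, 17 and 9 cells with 76, 376, 302 and 149 Cox6a2 UMIs, or 583, 1422, 645 and 806 CPM. That is 903 of the 967 Cox6a2 UMIs in the series, although the gene took no part in the clustering. All 4 libraries were high in that cluster, and the next cluster, T- and NK-like cells led by Xcl1, was at 6.90, 10.7, 16.8 and 9.09 CPM. The Cd209a dendritic-like cluster, with a median of 29032 UMIs per cell against 23921 in the Siglech cluster, had 3 Cox6a2 UMIs in all.

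The ubiquitous isoform Cox6a1 was present in both clusters, at 284, 212, 265 and 195 CPM in the Siglech and 285, 262, 305 and 329 CPM in the Cd209a cluster, so Cox6a2 was found beside it. Other members were not generally higher in the Siglech cluster. Of 78 members, 9 were higher there than in the Cd209a cluster in all 4 libraries (11.5%, against 36.1% of 6820 genes), with a median ratio of 0.89, while the median was 1.26 over those genes and 1.49 over the 13 mt- genes. Beside Cox6a2 the 9 were Ndufs1, Ndufs3, Ndufs7 and Ndufv2, which are core subunits of complex I, the accessory subunit Ndufa5, Sdha and Sdhb of complex II, and Atp5a1. Among these 8 the mean ratio ran from 1.07 for Atp5a1 to 1.59 for Ndufv2.

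**Figure D3:**
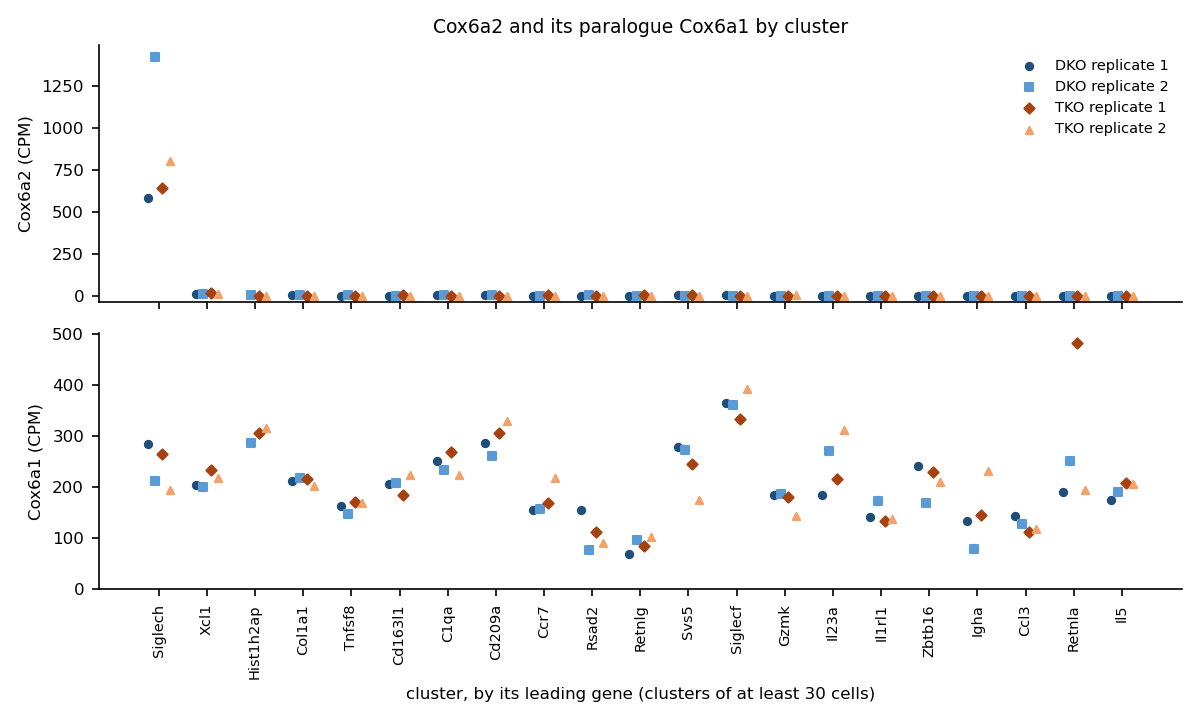
Level (CPM, linear axes) of Cox6a2 and of its paralogue Cox6a1 in each cluster of at least 30 cells, named by its leading gene; points are libraries. Cox6a2 stands at 583 to 1422 CPM in the Siglech cluster and at no more than 16.8 CPM in any library of the others, while Cox6a1 is spread over the clusters.

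Other restricted isoforms of complex IV were low. Cox6b2, known from testis, was found mainly in fibroblast-like cells, with 47, 101, 160 and 39 UMIs and a mean of 40.3 ± 14.4 CPM, beside class means of at most 8.13 CPM in the 5 other classes. Its ubiquitous paralogue Cox6b1 was at 401 ± 33.8 CPM in fibroblast-like cells. Ndufa4l2, a hypoxia-linked paralogue of Ndufa4, had 36, 124, 67 and 0 UMIs in epithelial-like and 39, 39, 38 and 5 UMIs in fibroblast-like cells, so TKO replicate 2 was lowest in both. Cox4i2, Cox7a1 and Cox8b had 96, 126 and 16 UMIs in the whole series.

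Neutrophil-like cells divided into 4 clusters with very different levels of these genes. In the cluster led by Retnlg the sum over the 85 genes was 4451, 4786, 5241 and 5885 CPM. In the cluster led by Siglecf it was 23029, 19767, 17250 and 17874 CPM, near the epithelial-like mean. The clusters led by Rsad2 (6232 ± 1286 CPM) and Il23a (11018 ± 766 CPM) lay between, and the Siglecf range overlapped none of the other 3. The low level of the neutrophil-like class is therefore an average over clusters that differ. Median depths were 6205 UMIs per cell in the Retnlg and 7808 in the Siglecf cluster. The 10 neutrophil markers summed to 59161 to 96264 CPM in the Retnlg and 41067 to 54378 CPM in the Siglecf cluster, and the 12 macrophage and monocyte markers to 251 to 454 and 718 to 1002 CPM, with none of the 12 at 0 in either. The part of depth and of these markers was not tested.

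The difference covered every complex. Of the 85 members 77 reached 20 CPM in either cluster, and the other 8 were Cox4i2, Cox6a2, Cox6b2, Cox7a1, Cox7b2, Cox8b, Cox8c and Ndufa4l2. For all 77 the lowest Siglecf library was above the highest Retnlg library, which held for 50.5% of 6009 genes. The median ratio was 4.59, against 1.83 over those genes. A gene can meet that floor through its high cluster alone, so the 54 members at 20 CPM in the Retnlg cluster are given too. Their ranges were apart in 54 of 54, against 33.2% of 3950 genes, with a median ratio of 4.14. Among the 54, the median ratio was 4.08 over 19 members of complex I, 2.29 over 3 of complex II, 4.26 over 5 of complex III, 3.85 over 12 of complex IV and 4.50 over 15 of complex V, and the ranges of the complexes overlapped.

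The mt- genes differed in the same direction. For all 12 at 20 CPM or more in either cluster the lowest Siglecf library was above the highest Retnlg library, against 50.5% of 6009 genes. Their median ratio was 5.72, against 1.83 over those genes, from 3.19 for mt-Co1 to 9.04 for mt-Nd1. In the Retnlg cluster mt-Nd4l (10.7 CPM) and mt-Atp8 (7.70 CPM) were under 20 CPM, so these met the floor through the Siglecf cluster alone. The ratio of nuclear-encoded to mt- UMIs was 1.95 ± 0.10 in the Siglecf, 2.38 ± 0.39 in the Retnlg and 1.94 ± 0.25 in the Rsad2 cluster, so the excess of nuclear-encoded UMIs was shared by clusters of low and high level. In the Il23a cluster it was 2.78, 0.947, 3.26 and 2.59, where DKO replicate 2 stood apart with an mt- sum of 11251 CPM, against 3649, 3647 and 4395 CPM in the other 3 libraries.

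Among these 54, Uqcrb, a subunit of complex III, had the highest ratio, at 369, 296, 241 and 210 CPM against 25.8, 18.9, 34.5 and 24.8 CPM, or 10.7. The highest of complex V was Atp5g2 with 9.43, of complex I Ndufb4 with 7.75 and of complex IV Cox7b with 7.22. Members too low in the Retnlg cluster for that floor had wider ratios on few counts. Ndufa5, an accessory subunit of complex I, was at 118, 116, 90.3 and 76.6 CPM in the Siglecf and 1.72, 7.27, 5.45 and 3.10 CPM in the Retnlg cluster, on 11 UMIs in the latter. Ndufa9 was at 43.1 against 2.05 CPM, on 5 UMIs, and Ndufa11 at 141 against 8.78 CPM, on 22 UMIs. Atp5l, the g subunit of ATP synthase, had the smallest ratio, at 727, 631, 554 and 570 CPM against 329, 304, 354 and 401 CPM, or 1.79. Uqcrh, the hinge protein of complex III, had a ratio of 2.01.

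**Figure D4:**
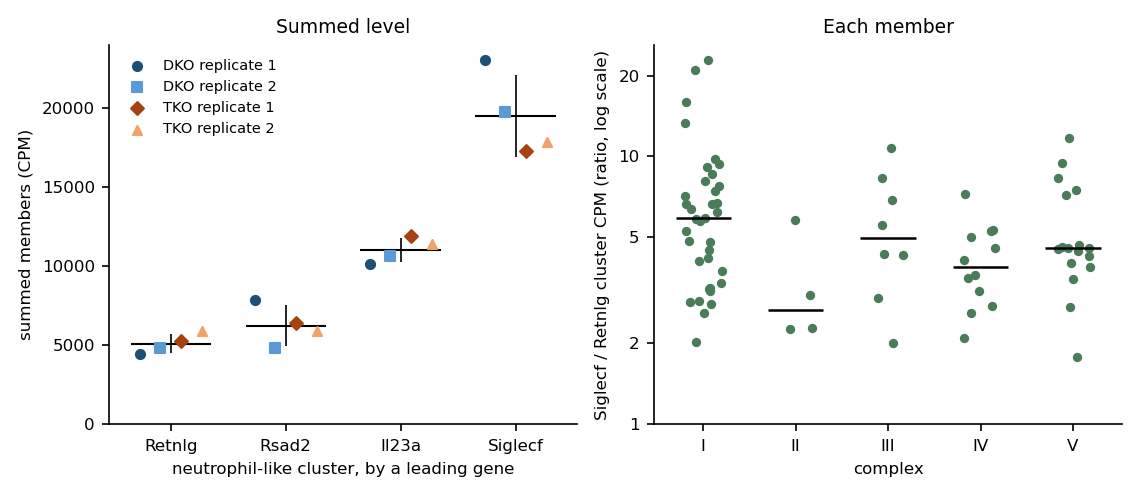
Left, summed level (CPM, linear axis) of the 85 genes in the 4 neutrophil-like clusters, with points for libraries and the mean and SD over 4 libraries. Right, ratio of the mean CPM in the Siglecf to the Retnlg cluster (log axis) for each of the 77 members by complex, with the median as a line; the lowest is 1.79 and the highest 22.8, and 54 of the 77 are at 20 CPM or more in the Retnlg cluster.

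Promoters of 5 members are shown, 3 of them with the NRF1 motif (Ndufa11, Atp5k, Cox6a1). The others are Ndufa9, with a wide Siglecf to Retnlg ratio and neither motif, and Atp5l, with the smallest ratio. NRF1 and the ETS factor GABP are known regulators of nuclear respiratory genes. Each line gives the 250 bases before the gene's start, 5′ to 3′ on the gene's strand, from RefSeq (GRCm38.p6). Capitals mark the NRF1 motif, a palindrome that is the only capital run in Ndufa11 and Atp5k and the first in Cox6a1, and the ETS motif CCGGAAG on either strand.
Ndufa11: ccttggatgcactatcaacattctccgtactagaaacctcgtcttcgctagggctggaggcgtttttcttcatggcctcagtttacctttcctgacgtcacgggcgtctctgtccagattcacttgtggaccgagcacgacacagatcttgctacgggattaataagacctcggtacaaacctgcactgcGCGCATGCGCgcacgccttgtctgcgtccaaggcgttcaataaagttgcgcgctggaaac
Atp5k: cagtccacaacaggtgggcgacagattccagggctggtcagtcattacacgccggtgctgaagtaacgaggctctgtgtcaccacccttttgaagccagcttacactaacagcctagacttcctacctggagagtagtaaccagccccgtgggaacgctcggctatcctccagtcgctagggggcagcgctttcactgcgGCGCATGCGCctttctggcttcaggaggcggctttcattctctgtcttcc
Cox6a1: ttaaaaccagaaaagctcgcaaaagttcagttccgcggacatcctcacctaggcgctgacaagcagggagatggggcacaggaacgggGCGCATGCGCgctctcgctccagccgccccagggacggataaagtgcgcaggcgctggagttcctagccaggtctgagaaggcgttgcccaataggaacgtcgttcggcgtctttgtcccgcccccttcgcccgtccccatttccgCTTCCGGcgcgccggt
Ndufa9: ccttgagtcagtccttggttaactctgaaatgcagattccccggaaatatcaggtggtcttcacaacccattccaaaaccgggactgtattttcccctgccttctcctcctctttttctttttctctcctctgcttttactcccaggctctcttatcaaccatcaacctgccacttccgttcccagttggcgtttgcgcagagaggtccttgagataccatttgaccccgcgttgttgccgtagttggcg
Atp5l: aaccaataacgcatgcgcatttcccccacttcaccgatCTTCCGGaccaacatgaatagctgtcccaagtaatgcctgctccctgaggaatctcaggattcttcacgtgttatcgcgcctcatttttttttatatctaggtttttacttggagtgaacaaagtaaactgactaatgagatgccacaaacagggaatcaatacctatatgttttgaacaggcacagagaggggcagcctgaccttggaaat
Ndufa11 is shown at chr17:56717512-56717761 (plus strand), Atp5k at chr5:108434400-108434649, Cox6a1 at chr5:115348959-115349208, Ndufa9 at chr6:126849145-126849394 and Atp5l at chr9:44920743-44920992 (all minus). The Siglecf to Retnlg ratios of Atp5k and Cox6a1 were 7.50 and 4.11.

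Promoter sequences matched 67 of the 85 genes, and a gene was counted where any of its listed starts held the exact motif on either strand. The NRF1 motif stood in 4 of 67 members (5.97%), against 0.877% of 27025 genes, and the ETS motif in 12 (17.9%, against 7.83%). The GC box GGGCGG stood in 24 (35.8%, against 35.4%), CCAAT in 30 (44.8%, against 37.5%), the E box CACCTG in 13 (19.4%, against 19.4%), TATAAA in 7 (10.4%, against 14.3%) and the YY1 motif in 1 (1.49%, against 0.359%). The median number of CG steps was 14 in members and 6 in all genes. Among matched members at 20 CPM or more in the Siglecf or Retnlg cluster, 15 held the NRF1 or ETS motif. Their median Siglecf to Retnlg ratio was 4.66, against 5.13 over the 48 with neither, and this difference was not tested. Both groups include members that met the floor through the Siglecf cluster alone. Examples are Ndufa11, with the NRF1 motif (8.78 CPM in the Retnlg cluster), and Ndufa9, with neither (2.05 CPM).

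Among T- and NK-like cells a cluster of 31 cells led by the histone gene Hist1h2ap had the highest mean sum of all clusters. It had no cell in DKO replicate 1 and 22867, 25385 and 22258 CPM in the 3 other libraries, from 7, 12 and 12 cells, where the Gzmk cluster had 16106, 15893 and 14712 CPM. Of 77 members 63 were higher in the Hist1h2ap cluster in all 3 libraries (81.8%, against 27.8% of 6827 genes), with a median ratio of 1.53 against 1.00. Sdhd, a membrane anchor of complex II, had the highest ratio, 2.41, and Cox7a2l the lowest, 0.68. Of 13 mt- genes 2 were higher in all 3 libraries, with a median ratio of 1.14. Median depth was 32284 UMIs per cell in the Hist1h2ap and 11749 in the Gzmk cluster, and its part was not tested.

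Between the genotypes, no member passed the threshold in any class. Summed counts were tested with edgeR's quasi-likelihood test (Benjamini-Hochberg adjusted p of 0.05 over all genes that passed its low-count filter). It called 0 of 78 members in T- and NK-like cells (0.0360% of genes), 0 of 79 in dendritic-like (0.0331%), 0 of 78 in epithelial-like (0%), 0 of 79 in fibroblast-like (0%), 0 of 77 in macrophage- and monocyte-like (0.0264%), 0 of 78 in neutrophil-like (0.0113%) and 0 of 82 in all cells (0%). So few genes were called at all that a count of 0 is near the background. DESeq2 also called 0 members, with 0.239%, 0.220%, 0.410%, 0.130%, 0.501%, 0.215% and 2.52% of genes in the same order.

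At an unadjusted p under 0.05, edgeR gave few members in either direction. In all cells 0 were higher in TKO (4.07% of genes) and 2 lower (7.76%). In dendritic-like cells 1 was higher (3.50%) and 0 lower (3.36%), in macrophage- and monocyte-like cells 1 higher (3.48%) and 1 lower (3.64%), and in neutrophil-like cells 0 higher (1.96%) and 1 lower (2.31%). None was found in T- and NK-like (2.58% and 2.87%), epithelial-like (3.31% and 2.38%) or fibroblast-like cells (1.56% and 2.21%).

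In epithelial-like cells the summed level was 23396, 22634, 19753 and 15486 CPM, a log2 difference of -0.39 for TKO over DKO. Both TKO libraries were below both DKO libraries, and this held for each complex, with differences of -0.31, -0.28, -0.47, -0.42 and -0.40 for complexes I to V. Of 78 members tested 76 had a negative fitted change (97.4%, against 48.3% of genes), with a median of -0.33 against 0.02. The smallest p was that of Cox5a, a matrix-facing subunit of complex IV, at 434, 387, 279 and 199 CPM (log2 -0.76 ± 0.32 SE, edgeR adjusted p = 0.836). Uqcrb (-0.78 ± 0.35) and the complex I subunit Ndufb9 (-0.57 ± 0.28) came next, and Cox7a2l (0.03) and Ndufs1 (0.01) were the members with a positive change. Without TKO replicate 1, edgeR called 1 of 78 members (1.28%, against 0.866% of 10387 genes), Ndufa4l2, which had 0 UMIs in TKO replicate 2.

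The makeup of the epithelial-like class differed between libraries along with that sum. At a finer resolution it divided into a cluster led by the seminal vesicle gene Svs5 and one led by Psca, with Krt14 and Krt5 among its leading genes. The Psca cluster, with a median of 57647 UMIs per cell against 8269, held 82.0%, 78.3%, 54.8% and 12.9% of the UMIs of the class. Within the Svs5 cluster the summed level was 13458, 13840, 15636 and 17009 CPM from 17, 49, 36 and 23 cells, higher in both TKO libraries. Within the Psca cluster it was 25571, 25075, 23149 and 5233 CPM from 18, 39, 16 and 3 cells, lower in both. With each cell weighted equally the difference for the class was 0.01, so the sign within the class depends on which cells carry the weight.

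**Figure D5:**
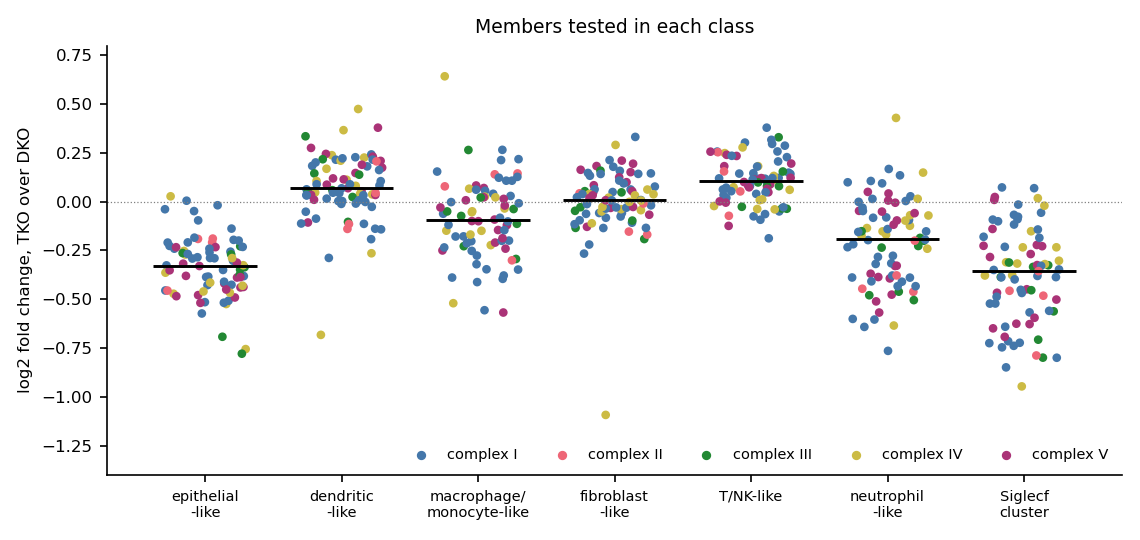
Fitted log2 change of TKO over DKO (linear axis) for each member tested, by class and in the Siglecf neutrophil cluster; colours give the complex and black lines the median. Medians are -0.33 in epithelial-like cells and -0.36 in the Siglecf cluster, 0.11 in T- and NK-like and 0.07 in dendritic-like cells, and no member passed the adjusted threshold.

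In the immune and fibroblast-like classes the library values of the genotypes overlapped for the summed level of each class. The log2 difference was 0.11 in T- and NK-like, 0.04 in dendritic-like, 0.00 in fibroblast-like, -0.03 in macrophage- and monocyte-like and -0.08 in neutrophil-like cells. Negative fitted changes were found in 15 of 78 members in T- and NK-like cells (19.2%, against 49.2% of genes), 18 of 79 in dendritic-like (22.8%, against 49.9%), 36 of 79 in fibroblast-like (45.6%, against 49.5%) and 51 of 77 in macrophage- and monocyte-like cells (66.2%, against 51.1%). In all cells they were found in 74 of 82 (90.2%, against 52.8%). The cell mix moved with the all-cells values: the 10 epithelial markers summed to 1760, 3268, 945 and 637 CPM and the 15 T- and NK-cell markers to 993, 1519, 2046 and 2282 CPM, with no marker of either list at 0. With each cell weighted equally the all-cells difference in summed members was 0.07, and the part of the mix was not tested.

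In T- and NK-like cells the mt- sum was 25715, 25920, 26842 and 29831 CPM, higher in both TKO libraries, while the summed members overlapped. The clusters of that class had different shares of its 113, 231, 359 and 310 cells. The Zbtb16 cluster, whose mean mt- sum of 33063 CPM was the highest of the class, held 17, 43, 67 and 75 of them, the Gzmk cluster 16, 45, 122 and 78, and the Cd163l1 cluster 26, 24, 27 and 11. The part of this mix was not tested.

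Ndufa4 had the smallest p in both dendritic-like cells, at 202, 229, 249 and 331 CPM (log2 0.47 ± 0.19, edgeR adjusted p = 0.698), and macrophage- and monocyte-like cells, at 181, 172, 282 and 294 CPM (0.64 ± 0.22, edgeR adjusted p = 0.583). Both TKO libraries were above both DKO libraries in each class. The macrophage- and monocyte-like class was a mix that differed between libraries, since at the finer resolution a cluster led by Chil3 held 36.1%, 51.5%, 62.3% and 88.1% of its cells and one led by C1qa the rest. Ndufa4 was higher in both TKO libraries within each, at 272, 281, 339 and 310 CPM in the Chil3 and 156, 99.1, 203 and 216 CPM in the C1qa cluster, where TKO replicate 2 had 5 cells. In dendritic-like cells Atp5o, the stalk subunit of ATP synthase that confers oligomycin sensitivity, followed (0.38 ± 0.17). In macrophage- and monocyte-like cells the complex I subunit Ndufb4 was at 157, 181, 127 and 111 CPM (-0.56 ± 0.23), lower in both TKO libraries. In T- and NK-like cells Uqcrb had the smallest p (0.33 ± 0.17, edgeR adjusted p = 0.973), with the opposite sign to its value in epithelial-like cells, a difference that was not tested. In fibroblast-like cells it was Ndufa4l2 (-1.09 ± 0.58, edgeR adjusted p = 0.997). In all cells Uqcr10, at 239, 278, 210 and 185 CPM, had the smallest p (-0.43 ± 0.15, edgeR adjusted p = 0.356), beside the lower epithelial markers in both TKO libraries given above for all cells, followed by the low isoforms Cox4i2 (-1.28 ± 0.45) and Ndufa4l2 (-1.37 ± 0.57).

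Averaged over the 6 classes, the 77 members tested in all of them had mean log2 changes close to 0. Members tested in fewer classes had wider values, such as -1.09 for Ndufa4l2 in fibroblast-like and -0.68 for Cox6a2 in dendritic-like cells. Among the 77 the highest and lowest means were those of Ndufa3 (0.09) and Ndufv2 (-0.23) in complex I, Sdhb (-0.04) and Sdhd (-0.17) in complex II, and Uqcrc2 (0.01) and Uqcr10 (-0.22) in complex III. In complex IV they were those of Cox7b (0.06) and Cox5a (-0.17), and in complex V those of Atp5j2 (0.01) and Atp5a1 (-0.16).

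In neutrophil-like cells 64 of 78 members had a negative fitted change (82.1%, against 50.3% of genes). Ndufc1 of complex I had the smallest p, at 116, 80.2, 68.5 and 51.7 CPM (log2 -0.76 ± 0.25, edgeR adjusted p = 1.00). The mix of clusters differed between libraries: the Siglecf cluster held 33.0%, 20.1%, 34.8% and 18.7% of the cells of the class, and replicate 1 of each genotype, with the larger share, had the larger summed level.

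Within the Siglecf cluster the summed level was lower in both TKO libraries (log2 -0.29). Without DKO replicate 1 the difference was -0.17, and with each cell weighted equally -0.10. Marker sums of 5 other cell types were low and higher in both TKO libraries, among them 569, 627, 726 and 701 CPM for the 9 fibroblast and 310, 300, 374 and 363 CPM for the 9 B- and plasma-cell genes (no fibroblast gene at 0, and Ms4a1 at 0). The sum of the 6 pericyte and smooth muscle genes was lower in both, at 9.46, 8.11, 7.72 and 2.84 CPM (Rgs5 and Cnn1 at 0). For the remaining lists of other cell types the libraries overlapped. The part of these marker sums was not tested. Of the members tested, 72 of 77 had a negative fitted change (93.5%, against 51.0% of 6673 genes). At an unadjusted p under 0.05, 18 were lower in TKO (23.4%, against 4.23% of genes) and 0 higher (against 3.82%), with 8 of the 18 in complex I, 1 in II, 3 in III, 0 in IV and 6 in V. None passed the adjusted threshold with edgeR (0.120% of genes) or DESeq2 (0.0749%). Ndufc1 was at 239, 225, 125 and 136 CPM (-0.85 ± 0.22, edgeR adjusted p = 0.274), Uqcr11 of complex III at 348, 231, 186 and 145 CPM (-0.80 ± 0.25, edgeR adjusted p = 0.404) and Atp5d, the delta subunit of ATP synthase, at 287, 264, 176 and 184 CPM (-0.63 ± 0.21, edgeR adjusted p = 0.453). For each of these genes both TKO libraries were below both DKO libraries. Without DKO replicate 2, edgeR called 9 of 77 members (11.7%, against 3.37% of 7887 genes), in a fit where the lone DKO library is assumed to vary like the TKO libraries.

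The values in the other neutrophil-like clusters were mixed. In the Retnlg cluster the summed level was higher in both TKO libraries (log2 0.27), and 26 of 62 members had a negative fitted change (41.9%, against 50.8% of genes). In the Il23a cluster it was also higher in both (0.16), with 30 of 75 negative (40.0%, against 50.1%), and in the Rsad2 cluster the libraries overlapped (-0.05), with 40 of 64 negative (62.5%, against 50.6%). No member was called by edgeR (0.0220%, 0.161% and 0.0713% of genes) or DESeq2 (0.361%, 0.254% and 0.119%) in the 3. At an unadjusted p under 0.05, 2 members were higher in the Retnlg cluster (2.93%) and 0 lower (3.43%), 0 higher in the Il23a cluster (2.36%) and 1 lower (3.13%), and 1 higher in the Rsad2 cluster (2.02%) and 0 lower (2.02%). The difference between clusters was not tested.

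The other lists of mitochondrial genes had no called gene in any class with edgeR, which called 0 to 4 genes per class. Over all genes tested, 4715 of 9768 changes were negative in epithelial-like cells (median log2 0.02). In the Siglecf cluster 3400 of 6673 were negative (median log2 -0.01). In epithelial-like cells negative changes were found in 19 of 23 subunits and carriers outside the symbol rule (median log2 -0.29), 16 of 20 genes of the tricarboxylic acid cycle (-0.25), 22 of 40 assembly factors (-0.10), 49 of 76 mitochondrial ribosomal proteins (-0.11), 11 of 13 mt- genes (-0.14) and 7 of 16 regulators (0.11). In the Siglecf cluster they were found in 11 of 16 subunits and carriers outside the symbol rule (-0.47), 18 of 19 genes of the tricarboxylic acid cycle (-0.43), 18 of 25 assembly factors (-0.23), 54 of 62 mitochondrial ribosomal proteins (-0.32), 9 of 12 mt- genes (-0.18) and 9 of 13 regulators (-0.11). The mt- genes of epithelial-like cells had 50608, 168698, 46300 and 28962 of 1116748, 3792199, 1564614 and 552739 UMIs. Their share was lowest in TKO replicate 1 and highest in TKO replicate 2, so the genotypes overlapped. Cycs, which encodes cytochrome c, the carrier between complexes III and IV, was at log2 0.75 ± 0.20 in dendritic-like cells (edgeR adjusted p = 0.412). In all cells Vdac1, an outer membrane channel, was at -0.45 ± 0.12 (edgeR adjusted p = 0.287) and Idh2, a mitochondrial isocitrate dehydrogenase, at -0.68 ± 0.18 (edgeR adjusted p = 0.288).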

How the data were processed

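UMI counts per gene and cell, as whole numbers with no scaling, are what the authors deposited. They were made with Cell Ranger 7.0.0 and STAR on mm10, per the submitters' processing notes. Barcodes with at least 200 genes and at most 20% mt- UMIs were kept, and no doublet caller was run. Cells were clustered with scanpy 1.11.5 and leidenalg 0.10.2 (2000 variable genes without members or mt- genes, 30 components, 20 neighbours, resolution 1.0, and 2.0 for finer clusters). A cluster was named where at least 3 markers and 40% of a class's markers were raised by a log2 of 1.0, a rule set after the data were seen. The 3 clusters left unnamed held 2.64% to 7.46% of cells per library. UMIs were summed per class and library, given as CPM, and tested with edgeR 4.0.16 (TMM scaling), with DESeq2 1.42.0 as an alternative. In simulated data edgeR recovered 0.5% of genes changed 2-fold in epithelial-like and 3.0% in neutrophil-like cells. In fibroblast-like and in macrophage- and monocyte-like cells it recovered 12.0%, and in all cells 18.5%. In dendritic-like cells it recovered 27.5% and in T- and NK-like cells 58.0%. At 4-fold the values were 62.0% to 90.0%, so smaller changes could be missed. No 2 libraries matched within counting error (a chi-square over genes gave 24.2 to 67.2 for each degree of freedom). The members, lists and tests were chosen with earlier results of these data known. Members were named as the 3 of smallest p in each class, the extremes of mean change and of class share in each complex, the isoform sets and the core subunits. Those named for the cluster comparisons were chosen after their values were seen. Positions are from GENCODE vM21 (GRCm38). A part of the genotype that both groups share is not reported here.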

Additional observations from a re-analysis of the deposited data

Results flagged for a closer look

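The summed level of the 85 genes in TKO over DKO had opposite signs in different populations. These were picked, from the classes compared and the neutrophil clusters, because both TKO libraries lay on the same side of both DKO libraries. In the others the libraries overlapped, and with so few libraries such a separation is common by chance. The summed level was lower in TKO in epithelial-like cells (log2 -0.39) and in the Siglecf neutrophil cluster (-0.29). It was higher in TKO in the Retnlg (0.27) and Il23a (0.16) neutrophil clusters. In epithelial-like cells the value was 0.0081 with each cell weighted equally, and both TKO libraries were higher within the Svs5 cluster of a finer clustering resolution (13458, 13840, 15636 and 17009 CPM, in the order DKO replicates 1 and 2, TKO replicates 1 and 2). In the Siglecf cluster it was -0.17 without DKO replicate 1 and -0.10 with each cell weighted equally. The difference between these populations was not tested.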

How the results depend on the processing

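The count of 0 members called held in every class and cluster under each alternative run there, except with 1 library left out: 0 to 1 in epithelial-like cells and 0 to 9 in the Siglecf cluster. For the 6 classes and all cells the alternatives were DESeq2, RLE scaling, no low-count filter, mt- and ribosomal protein genes removed, a limit of 10% mt- UMIs, resolution 2.0 and members among the variable genes. The clusters, chosen after the data were seen, had DESeq2, the replicate block and libraries left out. In the labels, same-numbered libraries share only a number, and whether they share a batch is not stated. The correlation of their deviations was 0.375 in neutrophil-like cells and -0.045 to 0.110 otherwise. The fit with the replicate block called 0 members in each class and cluster. Over all genes it called 0 to 25 in the 6 classes, 6 in all cells and 119 in the Retnlg and 50 in the Siglecf cluster, where the fit without it called 0 to 4, 0, 1 and 8. Classes with under 20 cells in a library were not fitted.

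The difference in summed level with 1 library left out ranged from -0.57 to -0.22 in epithelial-like cells, -0.39 to -0.17 in the Siglecf cluster and -0.36 to 0.36 in the Rsad2 cluster. With each cell weighted equally it was 0.0081 in epithelial-like cells, 0.075 in all cells and -0.10 in the Siglecf cluster. Summed levels with mt- and ribosomal protein genes out of the total were 24042 CPM in epithelial-like, 24281 in dendritic-like, 21638 in macrophage- and monocyte-like, 20828 in fibroblast-like, 20095 in T- and NK-like and 19644 in all cells, higher by construction. With cells weighted equally they were 18696 in dendritic-like, 14179 in T- and NK-like and 13146 in all cells, and the ratio to mt- UMIs was 0.684 in dendritic-like, 0.622 in macrophage- and monocyte-like, 0.584 in fibroblast-like and 0.504 in T- and NK-like cells. The cause of these shifts was not tested.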
